A study of Mus musculus with 10 samples.

Results

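Guidance genes encode the cell surface and secreted cues that repel or attract moving cells and growing axons, and their receptors. The members described here are the ephrins and Eph receptors, the semaphorins of classes 3 to 7 with the plexins and neuropilins, and the Slits and Robos. The families were chosen with earlier results of these data known. Their members were taken by name, as every gene symbol of these families in the files, without use of any measured value. This gave 60 genes of 33641 symbols, 31 of them ligands and 29 receptors. The ligands were 5 ephrin-A, 3 ephrin-B, 7 class 3 semaphorin, 13 class 4 to 7 semaphorin and 3 Slit genes, and the receptors were 9 EphA, 5 EphB, 9 plexin, 2 neuropilin and 4 Robo genes.

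The study asked how the transcription factors Gli2, Gli3 and Hand2 act in the developing lower jaw. Bulk libraries of polyadenylated RNA were made from mandibular prominences (MNPs), the first-arch swellings from which the lower jaw grows, of CD1 mouse embryos at embryonic day 10.5. Of 10 samples in the labels, 6 libraries were analysed, namely Gli2/3 cKO 3, Hand2 cKO 1 to 3, and wild-type (WT) 3 and 4. The remaining 4 samples are not analysed here. The Hand2 cKO embryos were Hand2 f/f with Wnt1-Cre, the Gli2/3 cKO embryo material was Gli2 f/f and Gli3 f/f with Wnt1-Cre, and the labels give the controls only as wild-type. Wnt1-Cre acts in the neural crest lineage, the source of most arch mesenchyme, so epithelium, vessels, blood and the mesodermal core keep the floxed genes. The number of embryos behind each library is not stated. The Gli2/3 cKO group had 1 library, so its values have no replicate.

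Ephrins are ligands anchored in the membrane, by a lipid anchor in the A class and by a transmembrane segment in the B class, and they bind Eph receptor tyrosine kinases on touching cells, with signals passed into both cells. Class 3 semaphorins are secreted and mostly bind neuropilins, which signal through plexin-A receptors, whereas semaphorins of the other classes are largely held at the membrane and bind plexins directly. Slits are large secreted proteins that bind Robo receptors and usually repel. In the head these systems are known for steering neural crest streams, cranial nerves and vessels into the arches, and for keeping cell populations apart.

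Promoter sequences are shown for 3 members on which the comparisons turn: Epha3, the one member called by any test, Efnb2, the one member higher in every Hand2 cKO library than in both WT libraries, and Robo2, the member with the lowest log2 fold change in Gli2/3 cKO. The 250 bases before each start site, from RefSeq on GRCm38.p6, lie on the minus strand at chr16:63864176-63864425 for Epha3, chr8:8661243-8661492 for Efnb2 and chr16:74411826-74412075 for Robo2. Capitals mark E-boxes, the 6 letters CANNTG that read alike on both strands and are the kind of site bound by basic helix-loop-helix factors such as Hand2.
Epha3: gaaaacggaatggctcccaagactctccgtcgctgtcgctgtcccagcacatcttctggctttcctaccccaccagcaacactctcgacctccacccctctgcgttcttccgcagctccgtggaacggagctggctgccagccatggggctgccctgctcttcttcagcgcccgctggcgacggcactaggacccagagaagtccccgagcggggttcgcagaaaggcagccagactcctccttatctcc
Efnb2: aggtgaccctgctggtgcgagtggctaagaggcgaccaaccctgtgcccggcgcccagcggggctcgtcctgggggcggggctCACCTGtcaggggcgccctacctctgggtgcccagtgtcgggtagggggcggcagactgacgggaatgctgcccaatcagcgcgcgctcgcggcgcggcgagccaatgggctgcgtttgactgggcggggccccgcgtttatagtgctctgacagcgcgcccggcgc
Robo2: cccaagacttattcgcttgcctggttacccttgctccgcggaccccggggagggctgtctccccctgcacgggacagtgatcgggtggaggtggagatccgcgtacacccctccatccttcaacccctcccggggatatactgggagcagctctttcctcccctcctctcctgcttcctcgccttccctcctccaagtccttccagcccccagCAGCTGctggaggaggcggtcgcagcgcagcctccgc
The Efnb2 window held 1 E-box, CACCTG, whose first base lies at position -167 from the start site, and the Robo2 window held 1, CAGCTG, at position -37. The Epha3 window held none. The Robo2 start site lies 533 bases from that of the Robo2 transcript with the most counts, which held 43.5% of the gene's counts. A RefSeq promoter was matched by symbol for 53 of the 60 members. Each of these members has 1 window, the nearest to the start of its transcript with the most counts. Some windows lie far from that start, up to 43008 bases for Sema6d. An E-box stood in 27 of these 53 windows (50.9%) and in 66.2% of all 32851 promoters, which were not narrowed to 1 per gene. The letters GACCACCC, a high-affinity Gli site searched on both strands, stood in 0 of the 53 and in 0.703% of all promoters. The study also reports divergent Gli motifs of lower affinity, found where Gli3 and Hand2 peaks overlap in the MNP. Those motifs were not searched here, so the count of 0 does not show that these windows lack Gli sites. The E-box and GACCACCC matches describe letters in short windows, and no binding was measured here.

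The libraries held from 21420197 to 53326697 estimated counts. Hand2 was at 175 and 209 counts per 1000000 counts of the scaled library (CPM) in WT, at 13.4, 25.5 and 15.6 in Hand2 cKO and at 144 in Gli2/3 cKO. Gli2 was at 122 and 105 CPM in WT and 58.3 in Gli2/3 cKO, and Gli3 at 176 and 145 against 80.2. The order of the levels follows the genotype labels for all 3 genes, although by edgeR only Hand2 came near the threshold (log2 fold change -3.40 ± 0.30 (SE), adjusted p = 0.0580). Hand2 cKO 2 stood apart from the other libraries: relative to the mean of all libraries, its log2 counts had a slope of -0.356 for each doubling in transcript length, whereas the other 5 had slopes from -0.0177 to 0.146. Guidance transcripts are long, with a median length of 4442 bases against 2688 for all genes tested, and receptors at 5569 bases are longer than ligands at 3976, so the counts over all members are also given with this trend removed and without that library, and those of a class where they moved.

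Marker lists for the cell types of the arch were set beside these genes as summed CPM. Neural crest mesenchyme was at 1491 to 1756 in WT, 1765 to 1856 in Hand2 cKO and 1805 in Gli2/3 cKO. Endothelium was at 253 to 284, 234 to 250 and 238, and epithelium at 339 to 348, 330 to 377 and 323. Neurons, which carry many guidance receptors, were at 109 to 155, 91.4 to 127 and 104, and crest-derived glia at 27.1 to 32.8, 18.5 to 28.2 and 25.5. Neural progenitors were at 10.1 to 11.2, 14.2 to 15.6 and 15.2, muscle precursors at 14.0 to 15.6, 11.3 to 18.2 and 16.7, and macrophages at 17.1 to 23.1, 16.5 to 22.1 and 12.1. Red blood cell markers were highest in WT 4 (6976) and Hand2 cKO 2 (7482) and at 2407 to 3542 in the other 4. Single markers did not all follow these sums. Of 5 neural progenitor genes, 3 had negative log2 fold changes in Hand2 cKO and 2 positive, from -2.21 to 1.40. In Gli2/3 cKO all 5 were positive. The lowest muscle precursor value was -7.67 in both mutants, where 4 and 6 of the 8 genes were positive. The lowest glia value in Gli2/3 cKO was -6.30, with 3 genes negative and 2 positive. No marker stayed at 3 counts or fewer in every library. The part of these shifts in the results below was not tested, and in whole tissue fewer cells of a type and less RNA per cell cannot be told apart.

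Nearly all guidance genes were expressed in the MNP. Of the 60, 59 passed the filter on low counts (0.239 CPM in enough libraries), and 57 were past it in all 3 groups. Epha6, at 2 to 11 counts per library, passed only through Hand2 cKO and Robo3, at 2 to 7, only through WT, so each had to be high in that group, and counts and medians are also given without them where they move. Plxnb3, a B-type plexin, did not pass, with 1 to 7 counts per library.

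Levels of different genes were compared as CPM divided by transcript length in kilobases (CPKM), here as WT means. In the ligand classes the leading genes were Sema3f at 58.8, a secreted ligand for neuropilin-2 that made up 62.5% of its class, Sema4c at 40.1, a ligand of plexin-B2, the ephrin-A gene Efna4 at 33.9, Efnb2 at 28.0 and Slit3 at 8.44. Among the receptors Plxnb2 led at 78.3 and was the highest of all members, ahead of Ephb4, a receptor for ephrin-B2, at 57.1. Robo1 at 24.3, Epha4 at 23.9, a receptor that binds ephrins of both classes, and Nrp2 at 18.5 led the other receptor classes. The order was close in some classes: Efnb2 (28.0 ± 7.69 (SD, n = 2)), Efnb3 (24.0 ± 2.10) and Efnb1 (22.2 ± 0.752) lay within the spread of Efnb2, and Slit3 (8.44 ± 0.049) stood above Slit2 (6.93 ± 0.167) by more than theirs. Epha5, Epha6, Epha8, Epha10, Sema3e, Robo3 and Plxnb3 were each under 0.5 CPKM.

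Summed over genes, the receptors reached 469 and 467 CPKM in WT, 403, 404 and 424 in Hand2 cKO and 391 in Gli2/3 cKO. Every mutant library was below both WT libraries. The Hand2 cKO libraries agreed less in CPM, where the receptor sums were 2151, 1541 and 2292 against 2555 and 2379 in WT. Gli2/3 cKO was at 2044 CPM. In CPKM, Plxnb2 was at 141 in Hand2 cKO 2 against 75.2 and 72.3 in Hand2 cKO 1 and 3. Its CPM was lowest in Hand2 cKO 2, at 291 against 374 and 397. The ligand sums overlapped, at 415 and 376 in WT, 397, 347 and 388 in Hand2 cKO and 345 in Gli2/3 cKO. Of the 10 classes, the EphA receptors stood furthest below WT in Hand2 cKO, at 54.9 and 49.97 CPKM in WT against 39.4, 25.4 and 41.8 (67.8% of the WT mean) and 38.7 in Gli2/3 cKO. The class 4 to 7 semaphorins were at 125 and 121 against 104, 80.6 and 106, with 115 in Gli2/3 cKO. The Robos were at 46.8 and 42.0 against 36.8, 19.6 and 41.0, and at 30.0 in Gli2/3 cKO. Both ephrin classes were at 113% of the WT mean in Hand2 cKO, and in each the libraries of the 2 groups overlapped.

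**Figure D1:**
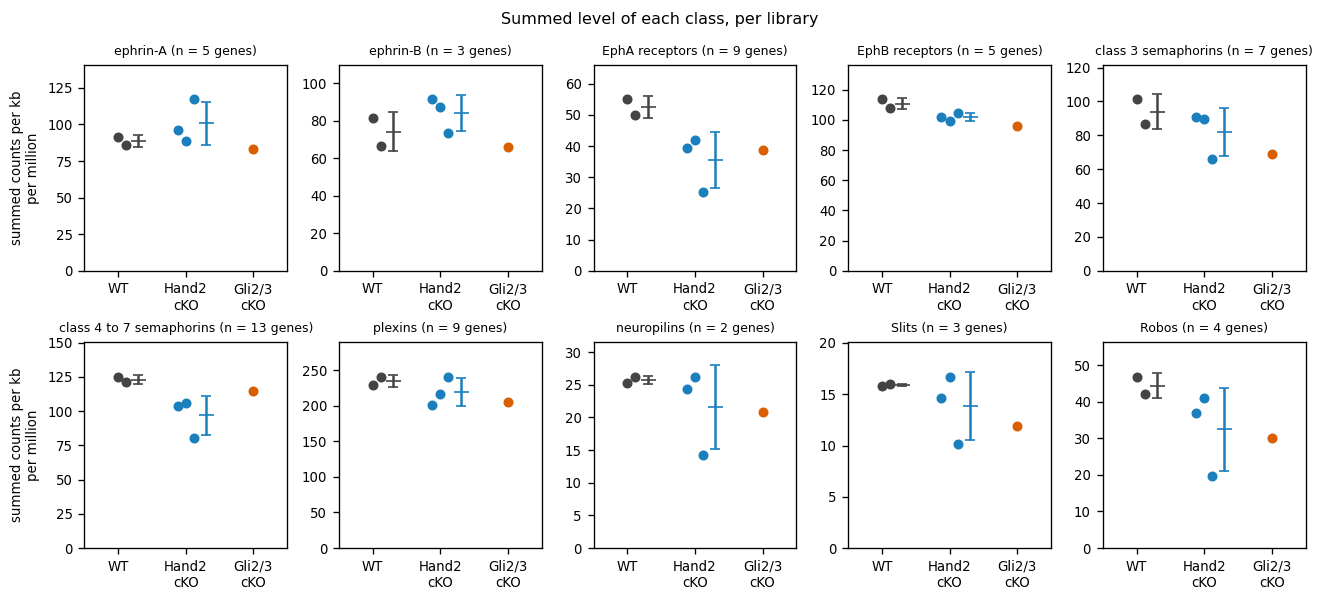
Summed level of each guidance class (y axis, CPKM, from 0) in each library (points) by genotype (x axis), with mean ± SD bars for the 2 WT and 3 Hand2 cKO libraries. EphA receptors, EphB receptors, class 4 to 7 semaphorins and Robos are below both WT libraries in every mutant library, while ephrin-A and ephrin-B overlap in WT and Hand2 cKO. In CPM, not drawn, the class 4 to 7 semaphorins and the Robos of Hand2 cKO overlap WT.

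The first comparison asked which guidance genes differ when Hand2 is lost from the neural crest. In Hand2 cKO MNPs more guidance genes stood below WT than above it, receptors more than ligands. Epha3 stood lowest among the well expressed members, at 37.4% of the WT mean, and Plxna4, Slit1 and Ephb1 were near 50%. Efnb2 stood out in the other direction, at 154%. Only Epha3 passed a test after adjustment.

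By edgeR, with an adjusted p below 0.05 and a fold above 1.5, 0 of the 59 members were called lower and 0 higher, beside 0.0114% and 0% of all 17477 genes tested. By DESeq2 1 member, Epha3, was called lower and 0 higher of 57 tested, beside 0.875% and 0.208% of all genes. At an unadjusted edgeR p under 0.05, 8 members were lower and 1 was higher, beside 4.02% and 2.44% of all genes. In 23 members every Hand2 cKO library lay below both WT libraries, beside 15.7% of all genes, and in 1 every library lay above, beside 15.3%. A negative log2 fold change was found for 41 of 59 members, beside 50% of all genes, and for 40 of the 57 without Epha6 and Robo3. The median log2 fold change was -0.27 over 28 receptors, 22 of them negative, and -0.099 over 31 ligands, 19 of them negative, against -0.00012 over all genes.

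Part of this depended on transcript length and on Hand2 cKO 2. Negative log2 fold changes were found for 37 of 59 members after removal of the length trend, beside 8286 of 17477 genes. Leaving out Hand2 cKO 2 gave 38 of 59, beside 9127 of 17349 genes. With the length trend removed, the median was -0.12 for receptors and -0.013 for ligands, 17 members were below WT in every library and 6 above, beside 15.9% and 20.9% of all genes, and 13 lower and 3 higher members had an unadjusted p under 0.05, beside 5.52% and 6.91%. Without Hand2 cKO 2 the medians were -0.19 and -0.046, 26 members were below and 9 above, beside 22.3% and 23.6%, and 17 lower and 4 higher members had an unadjusted p under 0.05, beside 5.48% and 4.26%.

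**Figure D2:**
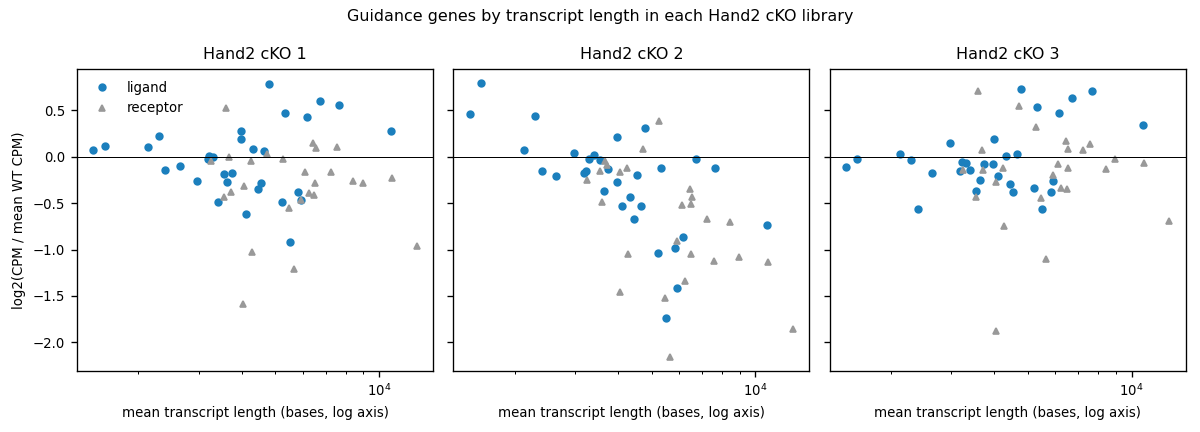
Level of 57 guidance genes in each Hand2 cKO library relative to the WT mean (y axis, log2 of the CPM ratio) against mean transcript length in bases (x axis, log scale), with ligands as blue circles and receptors as grey triangles. In Hand2 cKO 2 the points fall with length, while Hand2 cKO 1 and 3 show no such slope.

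Among the ligands, all 5 ephrin-A genes had positive log2 fold changes in Hand2 cKO, from 0.07 to 0.34. However, none lay above WT in every library, beside 15.3% of all genes. Without Hand2 cKO 2, 4 of the 5 were positive and 1 lay above WT in every library, beside 23.6%. Of the ephrin-B genes, Efnb2 was at 159.8 and 104 CPM in WT, at 227, 164 and 219 in Hand2 cKO and at 156 in Gli2/3 cKO. Efnb2 encodes a transmembrane ligand known from arterial endothelium and arch mesenchyme. All 3 Hand2 cKO libraries were above both WT libraries, the nearest pair being Hand2 cKO 2 and WT 3. The log2 fold change was 0.63 ± 0.25 (SE), with an unadjusted p of 0.0475 and an edgeR adjusted p of 0.723. After removal of the length trend Efnb2 was at 205 to 222 CPM in Hand2 cKO against 105 and 145 in WT. The size moved with the WT libraries, to a log2 fold change of 0.35 without WT 4 and 0.97 without WT 3. The other ephrin-B genes were close to WT, Efnb1 at 95.6% and Efnb3 at 92.3% of its mean.

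The semaphorins differed by class. Class 3 genes were split, 4 negative and 3 positive, with log2 fold changes from -0.29 to 0.42 and none at an unadjusted p under 0.05. The split was 3 and 4, with 1 higher gene at an unadjusted p under 0.05, when Hand2 cKO 2 was left out and also after removal of the length trend. Of all genes, 4.26% and 6.91% were higher at that p in these settings. The leading gene Sema3f was at 118 and 99.7 CPM in WT and at 102, 94.6 and 96.3 in Hand2 cKO, which overlapped. Of the 13 class 4 to 7 genes, 11 were negative, beside 50% of all genes, and 6 were below WT in every library, beside 15.7%, with a median of -0.19. Sema4c, the leading gene, was at 122 and 129 CPM in WT and at 104, 97.6 and 105 in Hand2 cKO (-0.30 ± 0.14 on the log2 scale). Every Hand2 cKO library was below both WT libraries for Sema4c. Sema4g, a membrane semaphorin, was at 48.5 and 56.4 CPM in WT and at 41.3, 32.9 and 42.8 in Hand2 cKO (-0.43 ± 0.17, edgeR adjusted p = 0.723). Sema6a, a membrane ligand of plexin-A2 and plexin-A4, was at 74.1 and 61.2 CPM in WT, at 51.9, 34.2 and 52.1 in Hand2 cKO (-0.55 ± 0.23, edgeR adjusted p = 0.723) and at 68.1 in Gli2/3 cKO. For both genes the Hand2 cKO libraries lay below WT without overlap, and the Gli2/3 cKO library lay inside the WT range for Sema6a.

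The 3 Slit genes did not move as a group in Hand2 cKO. Slit1 was at 2.84 and 2.79 CPM in WT and at 1.49, 0.845 and 1.90 in Hand2 cKO (-0.99 ± 0.37 on the log2 scale). Slit3 was at 44.1 and 44.0 CPM in WT and at 31.4, 21.4 and 34.8 in Hand2 cKO (-0.59 ± 0.22). Both were below WT in every library, with an edgeR adjusted p of 0.723 each. Slit2, the ligand most studied as a repellent of Robo1-bearing cells, had the opposite sign, at 37.4 and 33.1 CPM in WT and 52.0, 32.5 and 57.6 in Hand2 cKO (0.43 ± 0.26). Hand2 cKO 1 and 3 were above both WT libraries for Slit2 and Hand2 cKO 2 was just below them.

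Among the Eph receptors, Epha3 was the one called member. This receptor for ephrin-A5 and other A-class ephrins (chromosome 16, 63543534 to 63864175, minus strand, GENCODE M21) was at 58.8 and 40.5 CPM in WT, at 21.4, 11.1 and 23.1 in Hand2 cKO and at 24.3 in Gli2/3 cKO. All 4 mutant libraries were below both WT libraries, and Hand2 cKO 2 was the lowest. The log2 fold change in Hand2 cKO was -1.42 ± 0.34 (SE, 95% interval -2.25 to -0.59), with an adjusted p of 0.561 by edgeR. By DESeq2 it fell by 1.42 on the log2 scale with an adjusted p of 0.0141, and adjusted p ran from 0.0141 to 0.953 over the alternatives tried. With the length trend removed Epha3 was at 52.1 and 41.1 CPM in WT and 20.7, 14.9 and 21.3 in Hand2 cKO, again without overlap.

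Of the other EphA genes, 4 were negative and 4 positive, 1 of the positive genes being Epha6. Epha4, the most abundant, was at 139.6 and 123 CPM in WT, at 101, 51.9 and 104 in Hand2 cKO and at 105 in Gli2/3 cKO, which put every mutant library below WT. Its log2 fold change in Hand2 cKO was -0.62 ± 0.31 with an edgeR adjusted p of 0.723. Epha10, which lacks kinase activity, was rare, with 21 to 34 counts per library in WT and 9 to 14 in Hand2 cKO. That is 0.662 and 0.929 CPM in WT, 0.265, 0.290 and 0.217 in Hand2 cKO and 0.804 in Gli2/3 cKO (log2 fold change in Hand2 cKO -1.60 ± 0.42, edgeR adjusted p = 0.658). Of the 5 EphB genes 4 were negative, beside 50% of all genes. The count was 2 with the length trend removed, where the class median turned from -0.10 to 0.017, and 3 without Hand2 cKO 2. Ephb1, another receptor for ephrin-B2, was at 3.21 and 5.44 CPM in WT and 2.12, 2.09 and 2.58 in Hand2 cKO (-0.93 ± 0.30, edgeR adjusted p = 0.723). Its log2 fold change was -0.51 without WT 4 and -1.27 without WT 3. Ephb4 was nearly level, at 244 and 234 CPM in WT and 233, 219.6 and 220.0 in Hand2 cKO (-0.10 ± 0.14, 95% interval -0.44 to 0.25).

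All 8 plexins tested had negative log2 fold changes in Hand2 cKO, from -1.09 to -0.22, beside 50% of all genes. Of these 8, 5 were below WT in every library, beside 15.7% of all genes. With the length trend removed their median went from -0.37 to -0.15 and 3 were below WT in every library, beside 15.9%. Without Hand2 cKO 2 all 8 stayed negative, with a median of -0.19, and 5 were below WT in every library, beside 22.3%. Plxna4, a receptor for class 3 and class 6 semaphorins and one of the longest transcripts, was at 11.3 and 13.0 CPM in WT, at 6.22, 3.35 and 7.54 in Hand2 cKO and at 13.0 in Gli2/3 cKO. Its Hand2 cKO libraries were all below WT (-1.09 ± 0.34, edgeR adjusted p = 0.723), also with the trend removed, at 5.84 to 6.39 against 8.90 and 13.4. Plxnb2, the leading plexin, was at 439 and 397 CPM in WT and at 374, 291 and 397 in Hand2 cKO (-0.24 ± 0.19).

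The neuropilins had opposite signs. Nrp2 was at 111 and 129 CPM in WT and at 90.4, 58.1 and 94.2 in Hand2 cKO (-0.57 ± 0.24), below WT in every library. Nrp1, the co-receptor for Sema3a and for vascular endothelial growth factor, was at 29.2 and 22.6 CPM in WT and 37.3, 18.5 and 42.3 in Hand2 cKO, which overlapped. Robo1, Robo2 and the endothelial Robo4, the 3 Robo genes past the filter in all groups, were negative, with a median of -0.34, and without Hand2 cKO 2 the count was 2. Robo1 was at 197 and 170.1 CPM in WT and at 198, 84.4 and 202 in Hand2 cKO, so that only Hand2 cKO 2 was below WT. Robo2 was at 33.3 and 32.2 CPM in WT and at 22.4, 11.4 and 24.1 in Hand2 cKO (-0.76 ± 0.32, edgeR adjusted p = 0.723), below WT in every library, and without Hand2 cKO 2 its log2 fold change was -0.51.

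**Figure D3:**
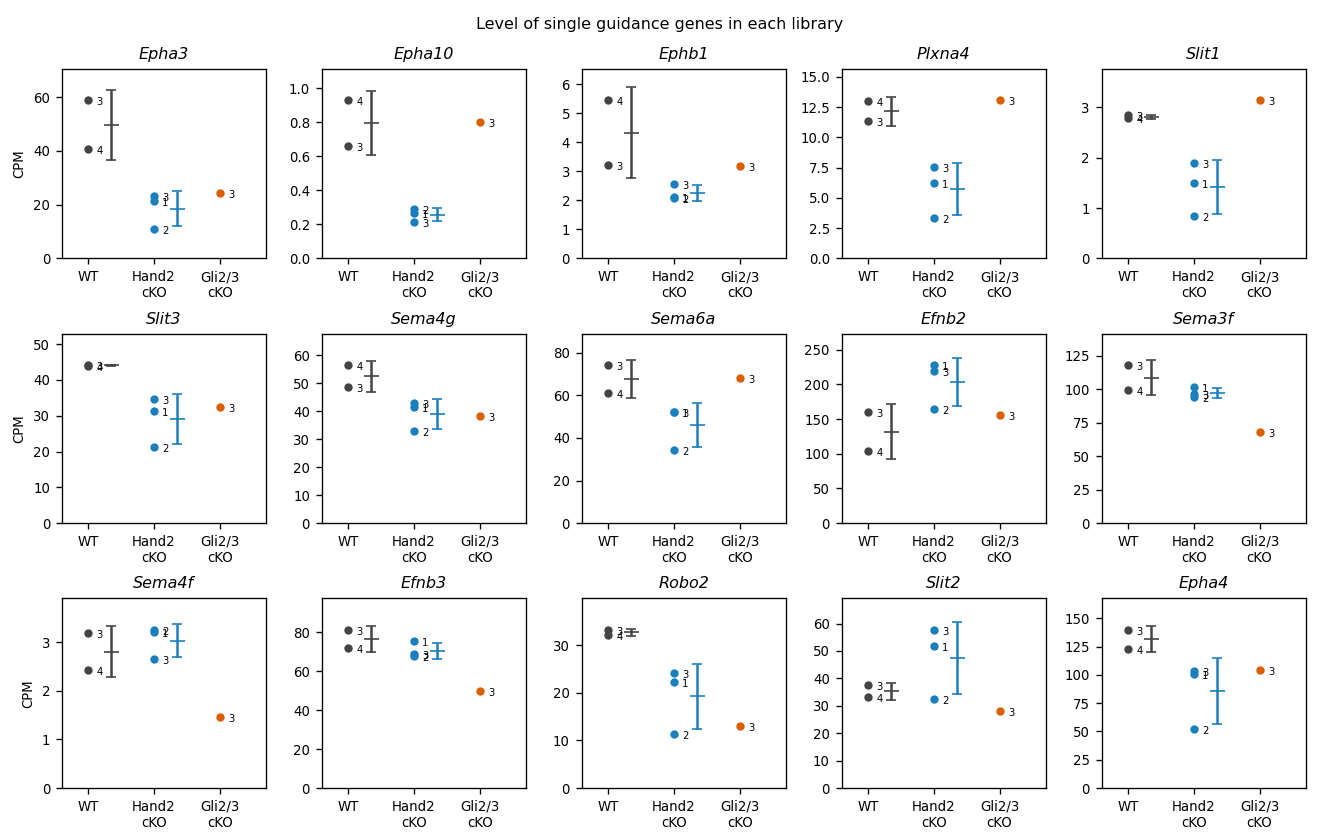
Level of 15 guidance genes (y axis, CPM, from 0) in each library (points, numbered by replicate) by genotype (x axis), with mean ± SD bars for WT and Hand2 cKO. Epha3, Plxna4 and Slit3 are below WT in every Hand2 cKO library, Efnb2 is above, and Sema3f, Sema4f and Efnb3 are lowest in the Gli2/3 cKO library.

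The second comparison asked the same of the loss of Gli2 and Gli3. In the 1 Gli2/3 cKO library the lowest guidance genes against WT were Robo2 at 40.1% of the WT mean, Epha3 at 48.9%, Sema4f at 51.9%, Sema3f at 62.7%, Plxna2, a semaphorin receptor of the plexin-A class, at 64.9% and Efnb3 at 65.4%, leaving aside Plxnb3, which did not pass the filter. With no replicate of this group, the tests borrowed the spread of the other libraries, and the WT libraries are the same as in the first comparison. By edgeR 0 members were called lower and 0 higher, beside 0.0114% and 0% of all genes, and by DESeq2 0 of 57, beside 0.689% and 0.124%. At an unadjusted edgeR p under 0.05, 4 members were lower and 0 higher, beside 2.96% and 1.63% of all genes. The library lay below both WT libraries in 37 members and above both in 9, beside 33.7% and 36.6% of all genes, and 44 of 59 log2 fold changes were negative, beside 49.7%. After removal of the length trend 47 of 59 were negative, beside 8767 of 17477 genes. Leaving out Hand2 cKO 2 also gave 47, beside 8882 of 17349 genes. The medians were -0.22 over receptors and -0.14 over ligands, against 0.0012 over all genes. They stayed at -0.26 and -0.16 with the length trend removed, where 12 lower and 0 higher members had an unadjusted p under 0.05, beside 5.05% and 3.28%, and 36 members lay below both WT libraries and 8 above, beside 35.2% and 38.2%. Without Hand2 cKO 2 in the fit, 16 lower and 0 higher members had an unadjusted p under 0.05, beside 6.56% and 4.24%.

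Of the ligands, Sema3f was at 68.3 CPM in Gli2/3 cKO against 118 and 99.7 in WT and 94.6 to 102 in Hand2 cKO. It was lower than in all 5 other libraries, with a log2 fold change of -0.67 ± 0.21 (SE) against WT and an edgeR adjusted p of 0.922. Efnb3, a transmembrane ephrin known from midline repulsion in the nervous system, was at 49.9 CPM against 81.1 and 71.6 in WT and 67.7 to 75.2 in Hand2 cKO (-0.61 ± 0.20, edgeR adjusted p = 0.958). Sema4f, a rarer membrane semaphorin, was at 1.45 CPM against 3.18 and 2.43 in WT and 2.65 to 3.25 in Hand2 cKO (-0.95 ± 0.37, edgeR adjusted p = 1). For these 3 ligands the Hand2 cKO libraries stayed near the WT range and the Gli2/3 cKO library alone was low. Efnb2 in Gli2/3 cKO, at 156 CPM, was inside the WT range, and Slit2 at 28.2 and Slit3 at 32.5 CPM were below it.

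Of the receptors, Robo2, a main Slit receptor (chromosome 16, 73891839 to 74411825, minus strand), was at 13.1 CPM in Gli2/3 cKO against 33.3 and 32.2 in WT. The log2 fold change was -1.32 ± 0.47 (SE, 95% interval -2.46 to -0.18), with an edgeR adjusted p of 1. All 4 mutant libraries were below WT for Robo2, and Hand2 cKO 2 was lower still than Gli2/3 cKO. Its neighbour Robo1 (chromosome 16, 72308306 to 73046095, plus strand) was at 165 CPM in Gli2/3 cKO, 89.8% of the WT mean. Epha3 at 24.3 CPM differed by -1.03 ± 0.49 on the log2 scale (95% interval -2.22 to 0.15). Plxnb2 was at 311 CPM, below the 397 and 439 of WT. Log2 fold changes of the 8 plexins ran from -0.62 to 0.10, with 7 negative, beside 49.7% of all genes. Both neuropilins were below WT, Nrp1 at 17.6 and Nrp2 at 103 CPM.

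**Figure D4:**
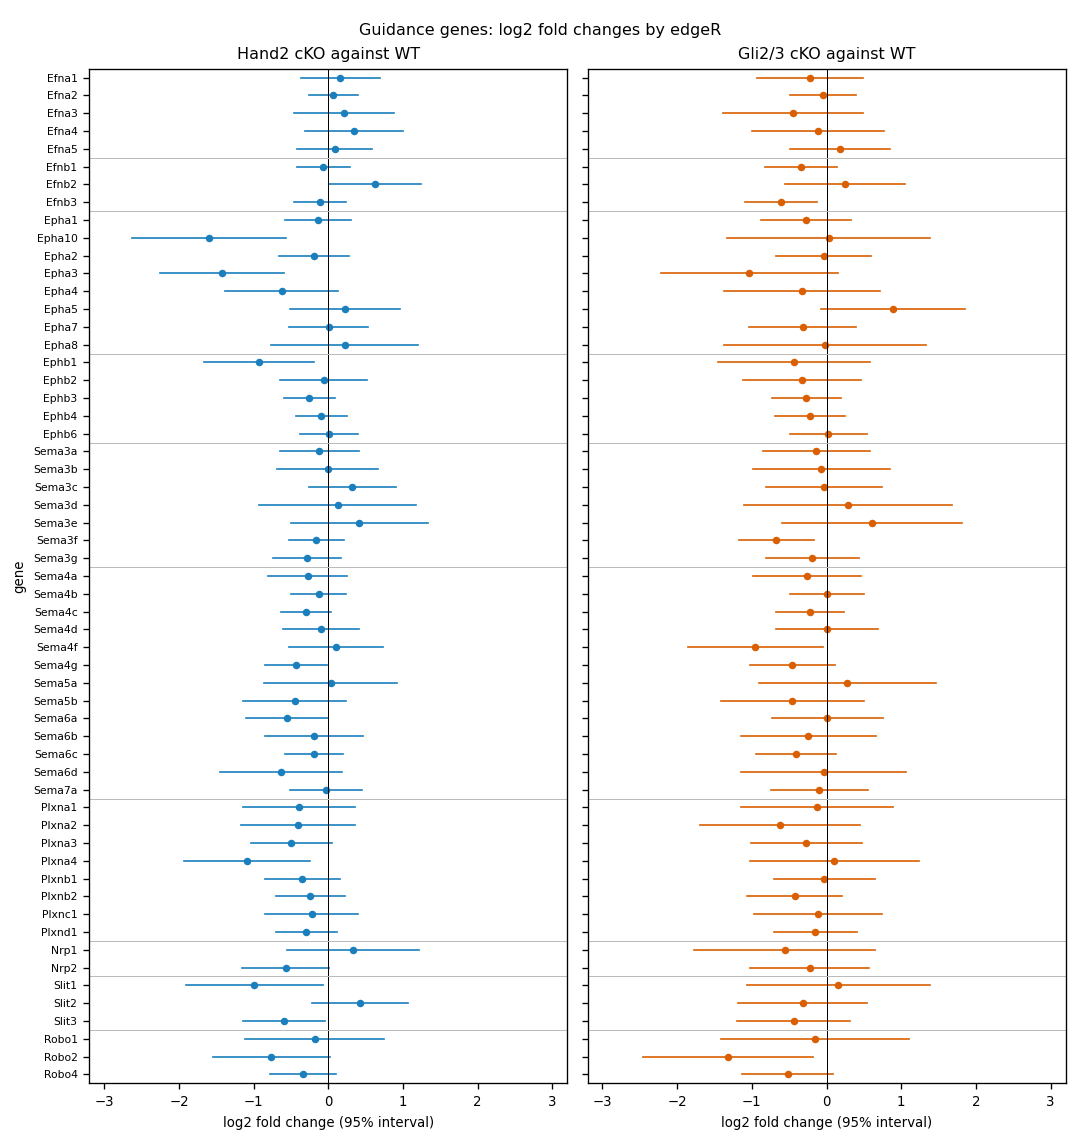
Log2 fold change (x axis) with its 95% interval from edgeR for 57 guidance genes (y axis, grouped by class) in Hand2 cKO against WT (left) and Gli2/3 cKO against WT (right). Most intervals cross 0. Those of Epha3, Epha10, Ephb1, Plxna4, Sema4g, Sema6a, Slit1 and Slit3 lie below 0 and that of Efnb2 above 0 on the left, and those of Sema3f, Sema4f, Efnb3 and Robo2 lie below 0 on the right.

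The third comparison set the mutants against each other. By edgeR 0 members were called lower and 0 higher in Gli2/3 cKO than in Hand2 cKO, beside 0.0172% of all genes each way, and by DESeq2 0 of 57, beside 0.620% and 0.255%. At an unadjusted p under 0.05, 3 members were lower and 3 higher, beside 2.63% and 2.86% of all genes. The library lay below all 3 Hand2 cKO libraries in 17 members and above them in 16, beside 27.2% and 28.7%, and 29 of 59 log2 differences were negative, beside 51.7%. With the length trend removed, 13 lower and 4 higher members had an unadjusted p under 0.05, beside 4.78% and 3.71%, and 27 members lay below all 3 Hand2 cKO libraries and 9 above, beside 33.8% and 28.6%. Without Hand2 cKO 2, 9 lower and 4 higher members had an unadjusted p under 0.05, beside 4.44% and 4.00%, and 29 lay below the other Hand2 cKO libraries and 16 above, beside 38.8% and 38.7%. Epha10, Plxna4 and Slit1, low in Hand2 cKO and at the level of WT in Gli2/3 cKO, were the 3 higher members, with log2 differences of 1.63 ± 0.52 (SE), 1.19 ± 0.42 and 1.15 ± 0.46 and edgeR adjusted p of 0.790, 0.851 and 0.897. Sema4f, Efnb3 and Sema3f were the 3 lower members, at -1.06 ± 0.36, -0.50 ± 0.19 and -0.52 ± 0.19, with edgeR adjusted p of 0.820, 0.875 and 0.875. Epha3 differed little between the mutants, by 0.39 ± 0.43 with a 95% interval from -0.66 to 1.43. Negative log2 differences were found for 39 of 59 members after removal of the length trend, beside 9697 of 17477 genes. Leaving out Hand2 cKO 2 gave 35 of 59, beside 8784 of 17349 genes. The median was 0.13 over receptors and -0.030 over ligands, against -0.015 over all genes. The receptor median was 0.071 without Epha6 and Robo3, and over all 28 it turned to -0.077 with the length trend removed.

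**Figure D5:**
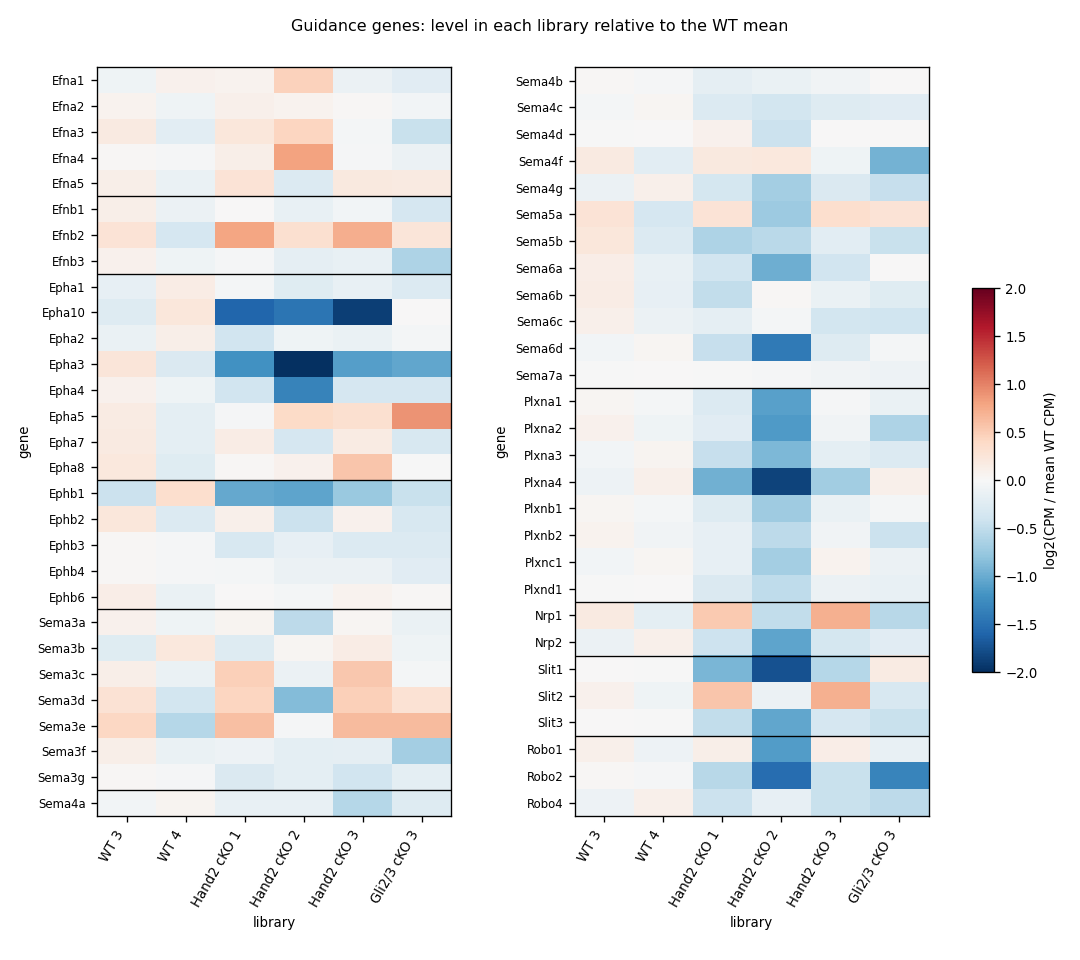
Level of 57 guidance genes (rows, grouped by class with black lines) in each library (columns) as log2 of the CPM over the WT mean, on a scale from -2 (blue) to 2 (red). Epha3 is blue in all 4 mutant libraries, Epha10, Plxna4 and Slit1 only in the Hand2 cKO libraries, Robo2 is deepest in Hand2 cKO 2 and Gli2/3 cKO 3, and Hand2 cKO 2 is bluer than the other libraries among plexins and Robos.

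Other guidance systems and shared effectors gave the context. Of 16 other guidance ligands and receptors, among them netrins and their Unc5 receptors, 14 were tested, and by edgeR 0 were called in any comparison. In Hand2 cKO against WT 3 were lower at an unadjusted p under 0.05 and 0 higher, beside 4.02% and 2.44% of all genes, and with the length trend removed 3 and 1, beside 5.52% and 6.91%. The median log2 fold change of -0.27 was -0.13 with the trend removed and 0.0045 without Hand2 cKO 2. Unc5c, a receptor through which netrins repel, was at 123 and 125 CPM in WT, at 60.9, 32.7 and 73.1 in Hand2 cKO and at 114 in Gli2/3 cKO. Unc5b, a netrin receptor also found on vessels, was at 144 and 180.1 CPM in WT, at 105, 93.5 and 111 in Hand2 cKO and at 136 in Gli2/3 cKO. Both were lower in every Hand2 cKO library, by log2 fold changes of -1.16 ± 0.33 and -0.65 ± 0.17 with edgeR adjusted p of 0.711 and 0.657, while the Gli2/3 cKO library was at 92.2% and 84.3% of the WT mean. Draxin, a secreted repellent that binds the netrin receptor Dcc, was at 4.13 and 3.85 CPM in WT, at 2.61, 1.69 and 2.60 in Hand2 cKO and at 1.80 in Gli2/3 cKO, below WT in all 4. In Gli2/3 cKO, Unc5a was at 1.76 CPM against 2.98 and 3.45 in WT, Rgmb, a membrane ligand of the receptor neogenin, at 17.9 against 15.6 and 8.89, and Unc5d at 2.56 against 1.25 and 1.33.

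Of 32 effectors inside the cell, which link these receptors to the cytoskeleton, all were tested and by edgeR 0 were called in any comparison. In Hand2 cKO against WT the median was -0.12, and at an unadjusted p under 0.05 none was lower and 1 was higher, beside 4.02% and 2.44% of all genes. After removal of the length trend the median was -0.0030, and 0 were lower and 2 higher, beside 5.52% and 6.91%. Without Hand2 cKO 2 the median was -0.017, with 1 lower and 1 higher, beside 5.48% and 4.26%. The higher gene was Dpysl2, a cytosolic mediator of semaphorin signals, at 72.9 and 58.0 CPM in WT and at 95.9, 134 and 79.9 in Hand2 cKO (0.66 ± 0.26, edgeR adjusted p = 0.723). Next by p were Rac1, a small GTPase (0.37 ± 0.19), and Fyn, a Src-family kinase (0.22 ± 0.14). In Gli2/3 cKO against WT the median was -0.056 and 0 had an unadjusted p under 0.05 (1, lower, without Hand2 cKO 2), and the 3 smallest p belonged to Mical1 (-0.33 ± 0.21), Limk1 (-0.30 ± 0.23) and Enah (0.29 ± 0.23). Between the mutants they belonged to Cdc42 (-0.31 ± 0.21), Fyn (-0.26 ± 0.18) and Rac1 (-0.33 ± 0.24).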

How the data were processed

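Libraries were grouped by the genotype and replicate number in their labels. According to its methods, the study aligned read pairs to mm10, estimated transcript abundance with Strand NGS and tested with DESeq2 in that program. No source used here gives its version, annotation or use of strand, so reads of antisense genes cannot be told apart, and near-identical transcripts are less certain. The deposited files hold expected counts, that is, estimated read counts per transcript made by the authors' program, for 105129 transcripts.

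Estimated counts were summed per gene symbol and rounded. Symbols were placed with GENCODE M21, all 60 members being found. In R 4.3.3, 17477 genes passed filterByExpr and entered 1 quasi-likelihood fit of edgeR 4.0.16 over all 6 libraries, scaled with TMM, with genotype as the only term (3 residual degrees of freedom). A gene counted as called with a fold above 1.5 and a p below 0.05 after Benjamini-Hochberg adjustment over all genes, and intervals are at 95%. CPM use the scaled library sizes. The lone Gli2/3 cKO library adds no residual degree of freedom. The steps were tested on simulated data. Pairs of libraries of the same group gave a chi-square per degree of freedom of 19.7 to 181, so none agreed within sampling noise. The study's methods speak of biologic samples but do not state that replicates are separate embryos. The p-values therefore measure only the spread between these samples.

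Members and lists were chosen with earlier results of these data known. Named genes were members called by either test, members at an unadjusted p under 0.05 (at most 12 per comparison), the leading gene per class in WT by CPKM, up to 3 per pathway list by p, and Hand2, Gli2 and Gli3; Slit2, Nrp1, Efnb1, Plxna2 and the genes under 0.5 CPKM were named after their values were seen. Alternatives were DESeq2 1.42.0, its size factors, no filter on low counts, protein-coding genes, only the 2 groups compared, removal of the length trend by offsets, and leaving out each WT and Hand2 cKO library.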

Additional observations from a re-analysis of the deposited data

How the results depend on the processing

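Over 21 pairs of a named gene and a comparison, 230 of 231 values under the alternatives kept their direction and their side of the threshold, and Epha3 in Hand2 cKO crossed it by DESeq2, which made the count of called members in that comparison 1 in place of 0. By edgeR no member was called with all libraries, so keeping a side of the threshold meant staying uncalled. Most pairs were picked for an unadjusted p under 0.05 in these same libraries, so a kept direction gives little support. Counts of members at an unadjusted p under 0.05 moved more than these values. In Hand2 cKO against WT the count was 9, and 16 with the length trend removed. Leaving out 1 library gave 2 to 21: 2 without WT 4, 3 without Hand2 cKO 1, 4 without WT 3 and as many as 21 when Hand2 cKO 2 was left out. In Gli2/3 cKO against WT it was 4, and 12 with the length trend removed, 7 with only the 2 groups compared and 0 to 16 with 1 library left out (0 without WT 3, 1 without Hand2 cKO 1 and 16 when Hand2 cKO 2 was left out). Between the mutants it was 6, and 17 with the length trend removed, 3 with only the 2 groups compared and 1 to 13 with 1 library left out (3 without WT 3, WT 4 or Hand2 cKO 3, 1 without Hand2 cKO 1 and 13 when Hand2 cKO 2 was left out). There the receptor median of 0.13 moved to -0.077 with the length trend removed. The count of members above WT in every Hand2 cKO library was 1, then 9 without Hand2 cKO 2 and 6 after removal of the length trend, both chosen after seeing the data. The cause of these shifts was not tested. Shares of all genes at an unadjusted p under 0.05 are given above for the main fit, the length trend removed and Hand2 cKO 2 left out. For the other settings no share is given, so their counts cannot be read against all genes. No paired analysis was possible because the groups with files share only replicate number 3. With 2, 3 and 1 libraries per group, small differences could not be detected, and a member that was not called may still differ.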

Other observations

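Ratios of close relatives within a library do not depend on how libraries were scaled. The pairs were chosen after their values were seen, are given as descriptions with no test, and set genes of one family against each other in CPM. Slit2 over Slit3 was 0.849 and 0.753 in WT, 1.65, 1.52 and 1.66 in Hand2 cKO and 0.869 in Gli2/3 cKO, so that Slit3 counts were the larger in WT and Slit2 counts in Hand2 cKO. With the length trend removed the ratio was 0.758 to 0.803 in WT and 1.60 to 1.74 in Hand2 cKO. Efnb2 over Efnb1, both ephrin-B ligands, was 2.28 and 1.74 in WT, 3.48, 2.81 and 3.51 in Hand2 cKO and 3.05 in Gli2/3 cKO, above WT in all 4 mutant libraries. Robo1 over Robo2, the neighbouring Slit receptors of chromosome 16, was 5.92 and 5.28 in WT, 8.85, 7.40 and 8.36 in Hand2 cKO and 12.5 in Gli2/3 cKO. Nrp1 over Nrp2, the class 3 semaphorin co-receptors, was 0.262 and 0.175 in WT, 0.412, 0.318 and 0.449 in Hand2 cKO and 0.171 in Gli2/3 cKO, and with the length trend removed Hand2 cKO 2, at 0.257, fell inside the WT range.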
